A study of Mus musculus with 15 samples.

Results

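Matricellular proteins are secreted into the extracellular matrix, where they act on cell adhesion and signalling more than on the strength of the matrix. The 9 genes described here were taken by name from the matricellular proteins and their receptor CD44, out of 55416 genes counted, with earlier results of these data known: Spp1, Cd44, Fn1, Postn, Tnc, Thbs1, Thbs2, Sparc and Vcan. Of these, 8 had enough reads to be tested, and Thbs2 was close to 0 in every sample. For Fn1, Postn, Tnc and Cd44 the shares of their transcripts were examined as well.

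RNA was sequenced from 15 samples of SVI, a conditionally immortalised line of mouse podocytes, the epithelial cells that wrap the capillaries of the kidney glomerulus. Differentiated cells grown on a flexible silicone support were either stretched mechanically or left unstretched, to model glomerular hypertension; how long they were stretched is not given in the sources used here. The first experiment (experiment 1) had 6 low-stretch samples (membrane deflection 5 to 6 mm in the sample labels, 6 mm in the design text) and 3 unstretched samples. Experiment 2 had 3 high-stretch samples (7 to 8 mm in the labels, 8 mm in the design text) and 3 unstretched samples. All groups were the same line without a drug or genetic change named in the labels, so a single cell line stands for podocytes, and amplitude cannot be told apart from experiment. Nothing in the labels states that replicates were independent cultures, so p-values measure the spread between these samples, which may be technical.

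Osteopontin, encoded by Spp1, is a secreted phosphoprotein that binds integrins and the cell surface receptor CD44. Fibronectin, periostin, tenascin-C, the thrombospondins, SPARC and versican are matrix proteins or proteoglycans that are made during development, wound repair and fibrosis. Fibronectin, periostin, tenascin-C and CD44 are also textbook cases of alternative splicing, in which exons are kept or left out in register.

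Total counts lay between 172.2 and 396.7 M per sample, and the members that were tested had from 374 to 2856892 counts in a sample, so counting error was small beside the spread between samples. Levels are given in CPM, a gene's counts scaled to the size of the library, and levels between genes are compared in TPM, which also corrects for transcript length. On the first principal component of 22015 genes, which separated the experiments, unstretched replicate 3 of experiment 2 scored 32.5, against 121.4 and 162.6 for the other unstretched samples of that experiment, so the results that moved most without it are given in both ways. Of 10 podocyte markers, which summed to 1200 to 1330 CPM and 1310 to 1550 CPM in experiment 1 and to 1650 to 2650 CPM and 2190 to 2900 CPM in experiment 2, 4 or 5 had a mean above 1 CPM in each group; Synpo and Podxl were among them, whereas Nphs1, which encodes nephrin, stayed below it. Endothelial markers summed to at most 0.227 CPM in any sample.

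Per length, Sparc, Spp1, Fn1 and Thbs1 were the 4 most abundant members in every group. In the unstretched cells of experiment 1, Sparc had the highest mean at 1126 ± 74.7 TPM (SD, n = 3), followed by Spp1 at 1034 ± 355 TPM, Fn1 at 796 ± 190 TPM and Thbs1 at 769 ± 21.4 TPM. The ranges of Sparc and Spp1 overlapped, as did those of Spp1, Fn1 and Thbs1 with each other. Tnc followed at 273 ± 43.7 TPM, Cd44 at 45.9 ± 15.4 TPM, Postn at 31.6 ± 21.4 TPM and Vcan at 4.27 ± 1.14 TPM. Under low stretch Spp1 led at 2114 ± 535 TPM (SD, n = 6) and Fn1 was second at 1405 ± 206 TPM, with overlapping ranges. Under high stretch Fn1 led at 1579 ± 277 TPM (SD, n = 3), above the highest value of Sparc, which averaged 1105 ± 28.5 TPM. In the unstretched cells of experiment 2 the order was Sparc at 1514 ± 50.5 TPM, Fn1 at 591 ± 112 TPM, Spp1 at 406 ± 415 TPM and Thbs1 at 375 ± 168 TPM (SD, n = 3), the last 3 with overlapping ranges.

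**Figure D1:**
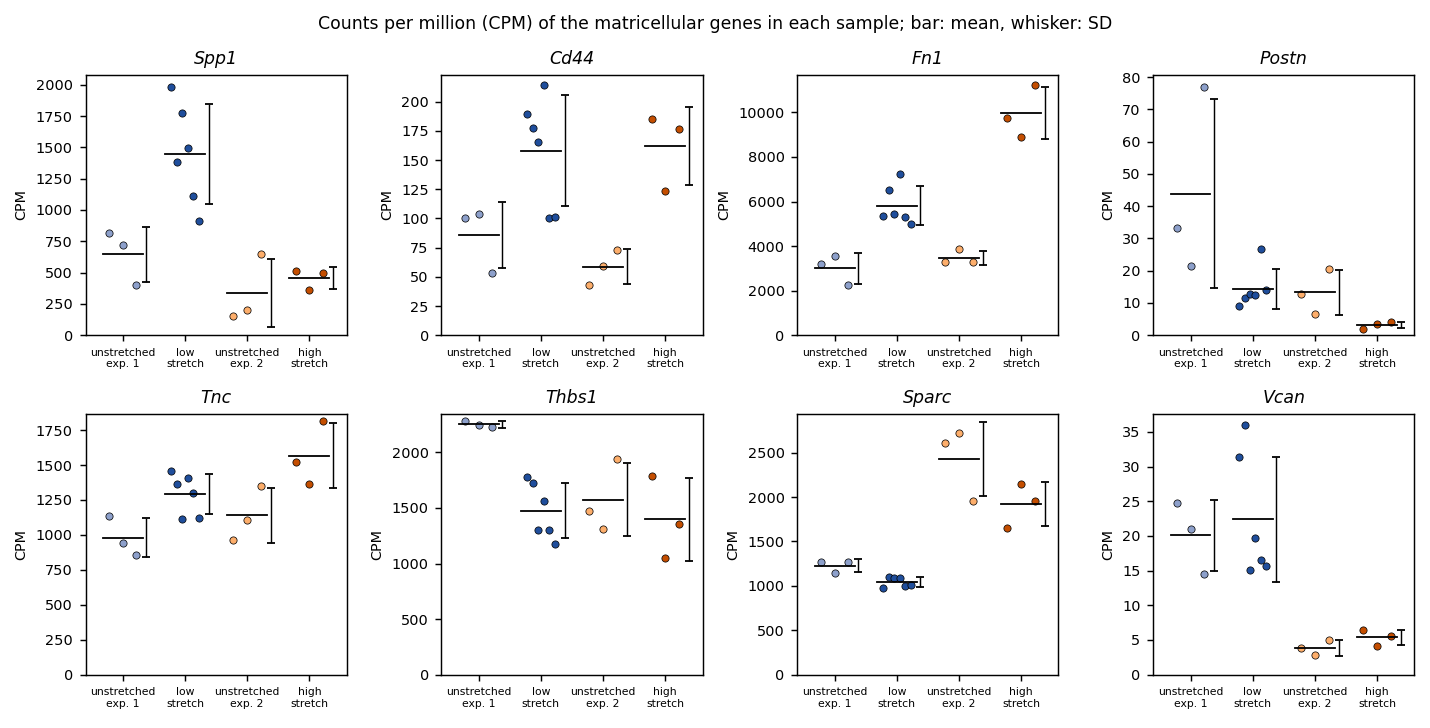
Level of 8 genes in each of the 15 samples, in CPM on linear axes that start at 0; each point is a sample, the bar is the group mean and the whisker its standard deviation. All stretched samples lie above the unstretched samples of their experiment for Fn1, whereas Spp1 in experiment 2 has 1 unstretched sample at 646 CPM above all 3 high-stretch samples.

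Experiment 1 sets low stretch against no stretch. There Fn1 and Spp1 rose and Postn and Thbs1 fell, so that 4 of the 8 genes tested had an adjusted p under 0.05 in the quasi-likelihood test of edgeR, adjusted by Benjamini-Hochberg over all genes. Of all 21672 genes tested, 5.45% were called, 1.85% higher and 3.6% lower. DESeq2 called 7 of the 8 and 11.4% of all genes, adding Cd44, Tnc and Sparc (DESeq2 adjusted p 0.0276, 0.0262 and 0.0472). The median log2 fold change of the 8 genes was 0.28, and that of all genes was 0.01. Experiment 2 sets high stretch against no stretch, and there Fn1 and Cd44 rose and Postn fell. In this comparison 3 of the 8 genes were called, against 3.47% of 18524 genes, 1.31% higher and 2.16% lower. The median log2 fold change of the 8 genes was 0.46, and that of all genes was -0.02.

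**Figure D2:**
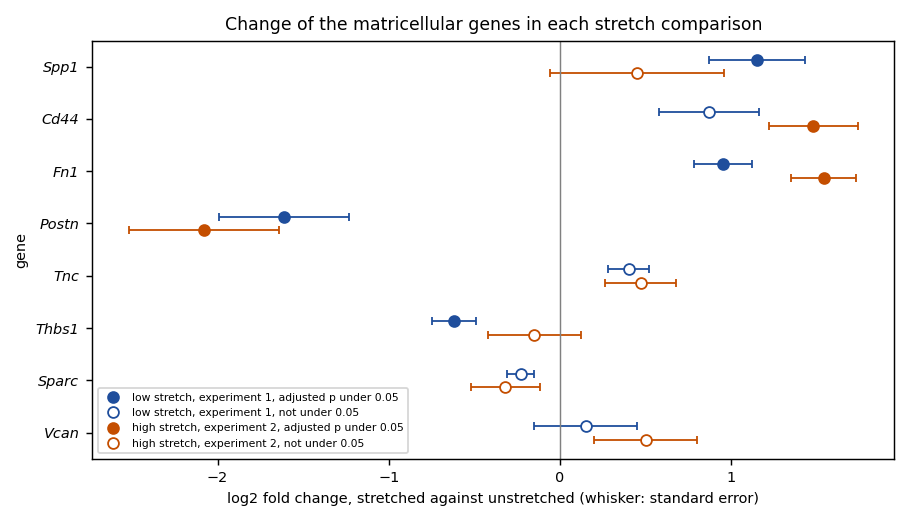
Log2 fold change of 8 genes under low stretch (blue) and high stretch (orange), each against the unstretched samples of its own experiment, with the standard error as whisker; filled points had an edgeR adjusted p under 0.05 and open points did not. Fn1 (0.95 and 1.54) and Postn (-1.61 and -2.08) are filled in both comparisons.

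Fibronectin is a large glycoprotein that cells assemble into fibrils through integrins. Fn1 (ENSMUSG00000026193) was at 2241, 3181 and 3575 CPM in the unstretched cells of experiment 1, and its low-stretch samples ran from 5009 CPM through a median of 5405 to 7250 CPM. Every low-stretch sample was higher than every unstretched sample. Groups did not overlap in this way for 2 of the 8 genes in the upward direction and 2 in the downward direction, against 15.3% of all genes, 7.81% higher and 7.47% lower. The log2 fold change of Fn1 was 0.95 (standard error, SE, 0.17, edgeR adjusted p 0.0132). In experiment 2 the unstretched samples were at 3278, 3306 and 3852 CPM and the high-stretch samples at 8915, 9771 and 11250 CPM. Again no samples overlapped, as for 3 of the 8 genes upward and 1 downward, against 20.6% of all genes, 9.97% higher and 10.7% lower. Its log2 fold change was 1.54 (SE 0.19, edgeR adjusted p 0.00844). A plate run here is a run of neighbouring plate positions that starts at an unstretched sample. It was inferred from the position codes, as no label names a run or batch. Since no samples overlapped, Fn1 had to be higher than the unstretched sample of its own run in 6 of 6 low-stretch and 3 of 3 high-stretch samples. Its low-stretch call was lost without unstretched replicate 1 or replicate 3 (edgeR adjusted p 0.0537 and 0.0619). Its high-stretch call was lost without high-stretch replicate 1, high-stretch replicate 3 or unstretched replicate 1 (edgeR adjusted p 0.059, 0.0651 and 0.0667), while the log2 fold change stayed between 1.48 and 1.65 in all 6 such fits.

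Mouse Fn1 has alternative exons known as EIIIB and EIIIA (EDB and EDA), each coding for an extra fibronectin type III repeat; EIIIA and EIIIB are largely missing from plasma fibronectin made in the liver and are present in fibronectin deposited by cells in tissue. Their sequences are shown because the shares of these exons are the splicing values in which Fn1 samples separated. Capitals mark the exon and lower case the 12 bases of the neighbouring exon on each side, in the transcript Fn1-201 of GENCODE M21. On the GRCm38 build, EIIIB is exon 25 of 46 on the minus strand at chr1:71613763-71614035 and EIIIA is exon 33 at chr1:71603660-71603929. Both lie in the coding sequence, and their lengths of 273 and 270 bases are multiples of 3.
Fn1 EIIIB: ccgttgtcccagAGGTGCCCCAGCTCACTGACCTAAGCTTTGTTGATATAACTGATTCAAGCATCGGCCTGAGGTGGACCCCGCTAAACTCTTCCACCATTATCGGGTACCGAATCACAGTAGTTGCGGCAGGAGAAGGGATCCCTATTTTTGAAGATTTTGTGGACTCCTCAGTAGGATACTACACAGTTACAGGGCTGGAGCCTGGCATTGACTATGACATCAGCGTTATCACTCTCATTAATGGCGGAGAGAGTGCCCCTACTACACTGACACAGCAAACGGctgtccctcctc
Fn1 EIIIA: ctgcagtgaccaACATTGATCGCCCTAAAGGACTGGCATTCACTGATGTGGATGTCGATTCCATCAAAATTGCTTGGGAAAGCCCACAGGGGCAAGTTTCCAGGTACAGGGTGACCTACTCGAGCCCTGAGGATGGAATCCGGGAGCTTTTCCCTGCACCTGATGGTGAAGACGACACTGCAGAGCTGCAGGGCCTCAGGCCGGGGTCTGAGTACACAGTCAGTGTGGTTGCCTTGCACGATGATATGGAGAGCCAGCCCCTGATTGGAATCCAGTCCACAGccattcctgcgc

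The share of Fn1 TPM that came from transcripts with EIIIB, among transcripts that span its place and hold or skip it, was 35.6, 37.4 and 37.6% in the unstretched cells of experiment 1. In the low-stretch samples it ran from 38.1 to 49.4%, with a mean of 44.6% ± 4.41 (SD, n = 6), so no sample overlapped. Under high stretch it was 48.9, 50.4 and 51.7%, against 41.9, 41.9 and 44.1% in the unstretched cells beside them. The differences were 7.76 and 7.67 percentage points. The share with EIIIA was 57.4, 57.5 and 58.5% in the unstretched cells of experiment 1 and 61.1 to 66.5% under low stretch, a difference of 6.72 points. In experiment 2 it was 60.5, 63.2 and 66.2% without stretch and 68.2, 71.2 and 71.5% under high stretch, a difference of 7.03 points. Neither experiment had an overlapping sample for either exon. Each stretched sample therefore had to be higher than the unstretched sample of its plate run, so the 6 of 6 and 3 of 3 such cases are not a further result. The 6 low-stretch samples also share 3 unstretched samples.

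For each Fn1 exon the two-sided exact permutation test gave p = 0.0238 under low stretch and p = 0.1 under high stretch, the smallest values that 6 against 3 and 3 against 3 samples allow. Over the 14 exon tests made in the 4 genes, the adjusted values of these exact tests were 0.0555 and 0.156, so none passed. In TPM, which is relative to each library, fibronectin transcripts with and without the exons were both higher. Fn1 TPM with EIIIA went from a mean of 422 ± 99.9 to 831 ± 126 under low stretch. Under high stretch it went from 356 ± 53.4 to 1060 ± 180. Fn1 TPM without EIIIA went from 307 ± 68.0 to 458 ± 75.3 and from 209 ± 53.0 to 451 ± 95.0 (SD, n = 3 unstretched in each experiment, 6 low stretch and 3 high stretch).

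**Figure D3:**
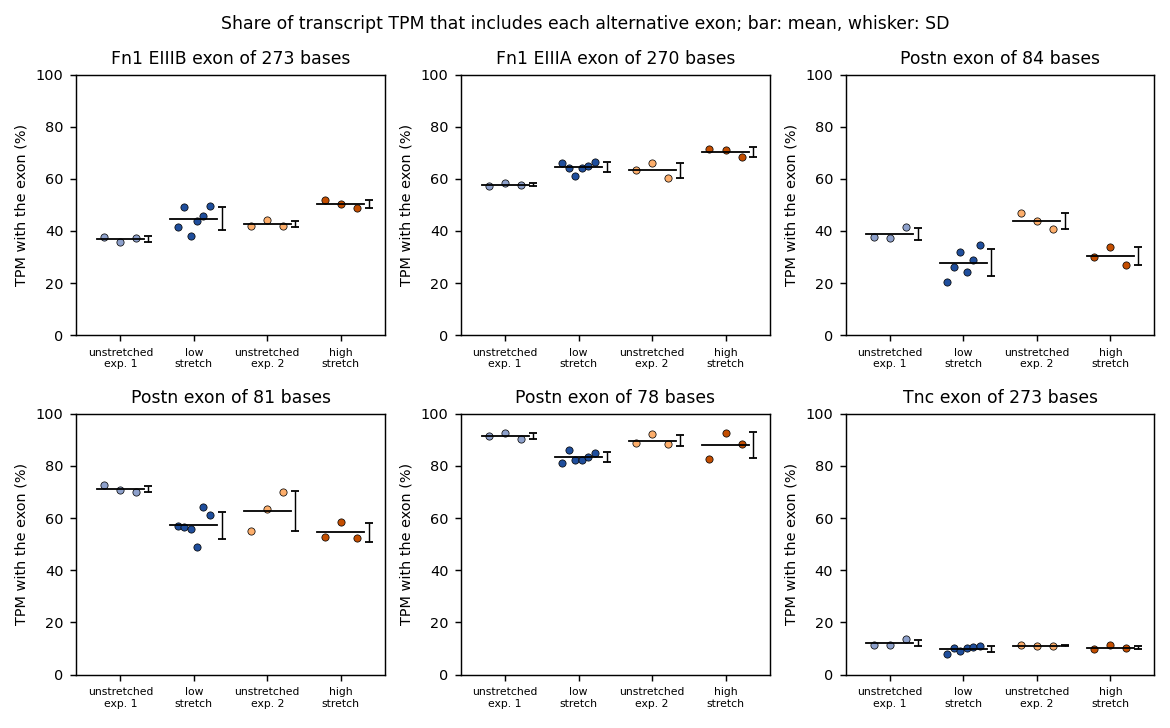
Share of transcript TPM that includes each of 6 alternative exons, in percent on axes from 0 to 100; points are samples, bars group means and whiskers standard deviations. Both Fn1 exons are higher in every stretched sample than in the unstretched samples of the same experiment, and the Postn exon of 84 bases is lower in every one.

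Of 17 Fn1 transcripts, 4 held at least 5% of the gene in some group and together at least 87.5%. Of these only Fn1-201 carries EIIIB, and mean TPM with EIIIB equalled that of Fn1-201, at 269 and 579 in experiment 1 and 241 and 762 in experiment 2. The EIIIB share and the Fn1-201 share are therefore not separate results. Fn1-201 also counts in the EIIIA share. Fn1-201, which carries both exons, took 33.9% ± 1.29 of Fn1 TPM without stretch and 41.0% ± 3.89 under low stretch, and 40.9% ± 1.30 and 48.2% ± 1.40 in experiment 2. Fn1-203, which carries neither, took 28.3% ± 1.07 and 22.6% ± 1.78, and 26.4% ± 2.54 and 18.9% ± 1.27 (SD, n = 3, 6, 3 and 3 in this order). The changes in the log2 ratio of Fn1-201 to the other transcripts were 0.44 and 0.43, with adjusted p-values in limma's test of 0.361 and 0.424. For Fn1-203 they were -0.44 and -0.61, with limma adjusted p-values of 0.244 and 0.381; with all 15 samples in one fit, which called 0.958% of transcripts under high stretch, the second was 0.0378. Fn1-214, with EIIIA alone, was at 18.5% ± 1.59 and 18.1% ± 3.30, and 18.8% ± 1.89 and 19.1% ± 0.659. The smallest of the 4, Fn1-217, also carries neither exon. Its mean share was 8.12% without stretch and 7.65% under low stretch, and 7.59 and 8.21% in experiment 2.

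Over Fn1, Postn, Tnc and Cd44, 13 transcripts were tested for usage and 0 passed in either stretch comparison or in the difference between them, in limma's test over all transcripts. The background was also low: 0.0145% of 27672 transcripts under low stretch, 0 of 23374 under high stretch and 0.0339% of 26524 in the difference. An unadjusted p under 0.05 was found for 5 of the 13 under low stretch, where 10% of all transcripts had one, and for 3 of the 13 under high stretch, where 8.15% did. For the difference it was 1 of the 13, against 4.82%.

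Osteopontin was the member with the largest rise under low stretch. Spp1 (ENSMUSG00000029304) was at 402, 717 and 817 CPM in the unstretched cells and ran from 914 CPM through a median of 1442 to 1985 CPM in the low-stretch cells. The lowest stretched sample lay above the highest unstretched one. In log2 terms Spp1 rose by 1.15 (SE 0.28, edgeR adjusted p 0.041). The call was kept without low-stretch replicate 5 or 6 (edgeR adjusted p 0.0345 and 0.0262) and lost when any of the other 7 samples was left out, with edgeR adjusted p-values from 0.0653 to 0.166 and log2 fold changes from 0.90 to 1.35. It was also lost with all 15 samples in one fit (edgeR adjusted p 0.136).

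In experiment 2 Spp1 depended on a single unstretched sample. The unstretched samples were at 155, 202 and 646 CPM, the last of them replicate 3, and the high-stretch samples were at 359, 496 and 514 CPM. Replicates 1 and 2 lay below all stretched samples and replicate 3 above them all. The fitted log2 fold change of Spp1 was 0.45 (SE 0.51, edgeR adjusted p 0.827). Without unstretched replicate 3 it was 1.41 with an edgeR adjusted p of 0.00343, in a fit that called 4 of the 8 members and 7.77% of all genes. Within plate runs, Spp1 was higher in 6 of 6 low-stretch and 2 of 3 high-stretch samples, the first fixed by the lack of overlap in experiment 1.

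The 250 bases before the start of Spp1 and Postn are shown because these genes moved in opposite directions under low stretch. RefSeq (GRCm38.p6) gave such a stretch for 7 of the 9 genes; that of Spp1 is chr5:104434861-104435110 and that of Postn is chr3:54360857-54361106, both on the plus strand. Capitals mark matches to the motif letters searched on both strands: TGANTCA (AP-1), TGACGTCA (CRE), GGAATG (TEAD), TGTGGT (RUNX) and CAGACA (SMAD), which stand in 6.75, 1.55, 12.6, 14.0 and 17.1% of 32851 promoter stretches of this length.
Spp1 promoter: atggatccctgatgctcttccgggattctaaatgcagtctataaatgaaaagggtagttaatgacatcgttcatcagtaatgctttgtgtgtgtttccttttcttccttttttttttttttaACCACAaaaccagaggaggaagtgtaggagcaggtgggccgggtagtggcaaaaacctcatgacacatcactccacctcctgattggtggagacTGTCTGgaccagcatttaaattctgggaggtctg
Postn promoter: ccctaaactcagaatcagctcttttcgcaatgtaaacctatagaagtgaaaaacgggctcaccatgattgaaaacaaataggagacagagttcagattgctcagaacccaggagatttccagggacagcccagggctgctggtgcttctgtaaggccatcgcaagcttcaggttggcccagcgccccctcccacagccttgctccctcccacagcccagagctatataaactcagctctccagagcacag
Spp1 holds a RUNX match on the minus strand from 128 to 123 bases before the start and a SMAD match from 34 to 29 bases before it. The Postn stretch holds none of these letters, which says nothing about binding there. Among the other genes with such a stretch, those of Cd44, Tnc and Vcan hold no match either. That of Sparc holds 1 SMAD match and that of Thbs2 holds 2. A link between matches and direction of change was not tested.

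CD44 is a cell surface receptor for hyaluronan and for osteopontin, and in the glomerulus it is known as a marker of activated parietal epithelial cells. Cd44 (ENSMUSG00000005087) was at 53.2, 100.2 and 104 CPM without stretch in experiment 1 and ran from 100.3 CPM through a median of 171 to 215 CPM under low stretch. The 2 lowest stretched samples, both from the third plate run, lay among the unstretched ones. Cd44 had a log2 fold change of 0.87 (SE 0.29) and did not pass (edgeR adjusted p 0.106). With the plate run as a block the edgeR adjusted p was 3.63e-05, in a fit that called 28.2% of all genes (13.7% higher, 14.5% lower), and the stretched sample was higher within its run in 6 of 6 cases. In experiment 2 the unstretched samples were at 43.0, 59.7 and 73.2 CPM and the high-stretch samples at 124, 177 and 185 CPM. These groups did not overlap, and the log2 fold change was 1.48 (SE 0.26, edgeR adjusted p 0.025). Without high-stretch replicate 1, high-stretch replicate 3 or unstretched replicate 1 the edgeR adjusted p was 0.116, 0.133 and 0.112.

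Cd44 transcripts differ by a block of variable exons in the stem of the protein. Of 9 transcripts, Cd44-203, which has none of the 5 variable exons compared, and Cd44-207, which carries them, held at least 97.7% of the gene in every group. Cd44-207 took 39.5% ± 1.32 (SD, n = 3) without stretch and 38.3% ± 1.16 (SD, n = 6) under low stretch, and 31.8% ± 3.11 and 30.2% ± 1.40 (SD, n = 3 each) in experiment 2. The share of TPM with the first of these, an exon of 117 bases, differed by -1.2 and -1.51 percentage points, with exact permutation p-values of 0.238 and 0.6 (n = 6 and 3, n = 3 and 3), and the groups overlapped. Under high stretch both forms were higher, at 39.8 ± 11 against 15 ± 6.25 TPM for Cd44-203 and 17.9 ± 6.02 against 7.39 ± 3.98 TPM for Cd44-207 (SD, n = 3 each).

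Periostin is a secreted protein of collagen-rich tissue that binds integrins and tenascin-C. Postn (ENSMUSG00000027750) was at 21.3, 33.3 and 77.1 CPM in the unstretched cells of experiment 1 and ran from 8.99 CPM through a median of 12.6 to 26.7 CPM under low stretch. The highest stretched sample lay above the lowest unstretched one, so the groups overlapped. Postn had a log2 fold change of -1.61 (SE 0.38, edgeR adjusted p 0.0357). Under high stretch it was at 2.03, 3.35 and 3.98 CPM, against 6.53, 12.7 and 20.6 CPM without stretch, with no overlap. This was a log2 fold change of -2.08 (SE 0.44, edgeR adjusted p 0.0456), and of -1.59 without unstretched replicate 3.

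Within plate runs, Postn was lower in the stretched sample in every case, 0 of 6 and 0 of 3 being higher. Under high stretch this was fixed by the lack of overlap. The calls were not stable to single samples. Under low stretch the call was kept without unstretched replicate 2 or low-stretch replicate 5 (edgeR adjusted p 0.0239 and 0.0131) and lost without any of the other 7, where the edgeR adjusted p ran from 0.056 to 0.237. It was -0.94 on the log2 scale without unstretched replicate 3. Under high stretch the call was kept without unstretched replicate 2 or 3 (edgeR adjusted p 0.00677 and 0.0161) and lost without unstretched replicate 1 or any high-stretch sample, at 0.12 to 0.196.

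Periostin transcripts differ near the end of the coding sequence, where exons of 81, 78 and 84 bases are kept or skipped. The share with the exon of 84 bases was 37.3 to 41.7% without stretch and 20.6 to 34.8% under low stretch, and 40.7 to 46.8% and 26.9 to 33.9% in experiment 2. Stretched samples lay below unstretched ones in both experiments, with differences of -11 and -13.5 percentage points. The exact permutation p-values were 0.0238 and 0.1 (n = 6 and 3, n = 3 and 3; adjusted 0.0555 and 0.156). Differences in the share with the exon of 81 bases were -13.8 and -8.32 points, and those with the exon of 78 bases were -8.12 and -1.81 points. For both exons the groups separated under low stretch and overlapped under high stretch (exact permutation p = 0.0238 with n = 6 and 3, and p = 0.2 and 0.7 with n = 3 and 3).

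Of 9 Postn transcripts, Postn-203 was the most abundant in each group, at group means of 44.8 to 52.1% of the gene. Postn-202, which carries all 3 exons, took 13.7, 15.3 and 18.7% without stretch and 1.79 to 10.5% under low stretch. In experiment 2 it took 12.5, 14.9 and 20.8% without stretch and was listed at 0 in 2 of the 3 high-stretch samples and at 3.44% in the third. Its log2 ratio to the other transcripts changed by -1.39 and -1.33, with limma adjusted p-values of 0.34 and 0.284. Postn-206, which lacks all 3 of these exons, took 8.06% ± 0.977 (SD, n = 3) without stretch and 15.7% ± 1.78 (SD, n = 6) under low stretch, and its limma adjusted p was 0.0675. Under high stretch and beside it without stretch, the shares were 11.9% ± 5.10 and 9.98% ± 2.05 (SD, n = 3 each). Postn itself was at 1.04 to 1.72 TPM under high stretch, so its shares there rest on a low level.

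Tenascin-C is a hexameric glycoprotein that weakens adhesion to fibronectin. Tnc (ENSMUSG00000028364) was at 859, 945 and 1134 CPM without stretch and ran from 1116 CPM through a median of 1330 to 1458 CPM under low stretch, with 2 stretched samples just below the highest unstretched one. Tnc had a log2 fold change of 0.40 (SE 0.12, edgeR adjusted p 0.0813). Under high stretch it was at 1362, 1519 and 1818 CPM, against 963, 1107 and 1350 CPM without stretch. These groups did not overlap, but the log2 fold change of 0.47 (SE 0.21) did not pass (edgeR adjusted p 0.361). In TPM they did overlap, at 166, 173 and 322 without stretch and 214, 301 and 313 under high stretch. Each stretched sample was higher in CPM than its plate-run mate, by 0.24 to 0.66 on the log2 scale. This held in 6 of 6 and 3 of 3 cases, the second fixed by the lack of overlap in CPM. The low-stretch edgeR adjusted p was 0.00493 with the plate run as a block. Of 4 Tnc transcripts, Tnc-204 was the most abundant, at group means of 75.9 to 79.8% of the gene. The share with an alternative exon of 273 bases, carried by Tnc-203, differed by -2.25 points under low stretch (exact permutation p = 0.0238, adjusted 0.0555, n = 6 and 3), with no overlap, and by -0.735 points under high stretch (exact permutation p = 0.3, n = 3 and 3), with overlap.

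Thrombospondin-1 activates latent TGF-beta and binds CD47 and CD36. Thbs1 (ENSMUSG00000040152) was at 2227, 2250 and 2285 CPM without stretch in experiment 1 and ran from 1177 CPM through a median of 1432 to 1777 CPM under low stretch. Every stretched sample was lower, and the log2 fold change was -0.62 (SE 0.13, edgeR adjusted p 0.0253). Leaving out unstretched replicate 1, 2 or 3 or low-stretch replicate 4 raised the edgeR adjusted p to 0.0958, 0.0699, 0.0975 and 0.05, and one fit of all 15 samples raised it to 0.0759. It was 0.176 with the unstretched samples of both experiments pooled and 0.133 with the replicate number as a block. In experiment 2 the samples mixed: 1307, 1471 and 1943 CPM without stretch and 1046, 1359 and 1790 CPM under high stretch. There the log2 fold change was -0.15 (SE 0.27, edgeR adjusted p 0.903), and it was 0.07 without unstretched replicate 3 and 0.06 without high-stretch replicate 2. Thbs2, which encodes the related thrombospondin-2, had 20 counts over all 15 samples and at most 8 in any, with 5 samples at 0, and was not tested.

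SPARC is a collagen-binding protein, and its gene had the highest mean per length of the members in both unstretched groups. Sparc (ENSMUSG00000018593) was at 1145, 1265 and 1269 CPM without stretch and ran from 976 CPM through a median of 1053 to 1100 CPM under low stretch. Every stretched sample was lower, but the log2 fold change of -0.23 (SE 0.08) did not pass (edgeR adjusted p 0.0974). With the plate run as a block the edgeR adjusted p was 0.0242. In experiment 2 it was at 1953, 2609 and 2724 CPM without stretch and at 1653, 1957 and 2146 CPM under high stretch, with overlap, and the log2 fold change was -0.32 (SE 0.20, edgeR adjusted p 0.578). In TPM these groups did not overlap, at 1456, 1535 and 1550 without stretch and 1073, 1114 and 1127 under high stretch.

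Versican is a large proteoglycan that binds hyaluronan. Vcan (ENSMUSG00000021614) was at 14.5, 21.0 and 24.7 CPM without stretch in experiment 1 and ran from 15.1 CPM through a median of 18.1 to 36.0 CPM under low stretch. The 2 highest stretched samples came from the first plate run and the other 4 lay within the unstretched range. Vcan had a log2 fold change of 0.15 (SE 0.30, edgeR adjusted p 0.799). In experiment 2 the levels were 2.77, 3.76 and 5.02 CPM without stretch and 4.18, 5.50 and 6.41 CPM under high stretch, and the log2 fold change was 0.50 (SE 0.30, edgeR adjusted p 0.551), with 2 of 3 stretched samples above every unstretched one.

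Whether high and low stretch differed in effect was asked in a joint fit of both experiments, where 0 of the 8 genes passed in edgeR, as did 0 of all 22015 genes. At an unadjusted p under 0.05 there were 547 genes in all and 1 of the 8, Fn1, with a difference of 0.56 (SE 0.24). DESeq2 also gave 0 of the 8. The differences ranged from -0.71 for Spp1 to 0.59 for Cd44 with SEs of 0.57 and 0.41, so differences of that size were not detectable here. Without unstretched replicate 3 of experiment 2 the difference was 0.27 for Spp1, and it went from -0.49 to 0.04 for Postn.

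The unstretched cells differed between the experiments in several members. In experiment 2 Sparc was higher, with a log2 difference of 0.97 (SE 0.20, edgeR adjusted p 0.00565). Vcan (-2.40), Postn (-1.74) and Thbs1 (-0.54) were lower, with edgeR adjusted p-values of 0.00533, 0.0204 and 0.0454. These are 4 of 8 genes, where 62.5% of 20707 genes were called, 29.7% higher and 32.7% lower. Spp1 (-0.97) and Cd44 (-0.57) did not pass, at 0.134 and 0.125, and without unstretched replicate 3 of experiment 2 they were at -1.92 and -0.81 with edgeR adjusted p-values of 0.000763 and 0.0386. Fn1 (0.20) and Tnc (0.20) had edgeR adjusted p-values of 0.46 and 0.406. In TPM the 4 called members kept their directions, with Sparc at a mean of 1514 against 1126 in experiment 1. Fn1 (591 against 796) and Tnc (220 against 273) had lower mean TPM in experiment 2, with overlapping ranges. The size of these differences, and the direction for Fn1 and Tnc, thus depended on the measure.

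The genes around the members were taken from lists of receptors, partners and enzymes, whose counts stand against the shares of all genes called (1.85% higher and 3.6% lower under low stretch, 1.31% and 2.16% under high stretch). Of 14 receptor genes, 12 were tested in each comparison. Under low stretch 0 rose and 3 fell: Itgb6 (log2 fold change -1.36, edgeR adjusted p 0.00754), Itga4 (-1.32, 0.0498) and Sdc4 (-0.40, 0.0224), against a median of -0.01 for the list and 0.01 for all genes. The Itga4 call was kept in 2 of 9 fits with a sample left out (without low-stretch replicate 2 or 5, edgeR adjusted p up to 0.225 otherwise) and in 2 of 7 other settings, and that of Sdc4 was lost without each unstretched sample in turn or low-stretch replicate 4 (up to 0.101). Itgb6 and Itga4, subunits of integrins that bind fibronectin, were low throughout, at 0.339 ± 0.084 and 0.152 ± 0.0539 CPM (SD, n = 3) in the unstretched cells. Sdc4, a heparan sulfate proteoglycan that joins integrins at focal adhesions, went from 280 ± 8.67 CPM (SD, n = 3) to 213 ± 18.6 CPM (SD, n = 6). Under high stretch 1 rose and 1 fell: Itgb3, the partner of integrin alpha-v in binding osteopontin, rose from 2.14 ± 0.677 to 6.02 ± 1.04 CPM (SD, n = 3 each; log2 fold change 1.5, edgeR adjusted p 0.0382), and Itgb6 fell (-2.93, 0.0441). The Itgb3 call was kept only without unstretched replicate 3 among 6 fits with a sample left out (edgeR adjusted p up to 0.18), and that of Itgb6 only without unstretched replicate 2 or 3 (up to 0.197). Itgb1 and Itga5, which form the main fibronectin receptor, had log2 fold changes of 0.37 and 0.41 under low stretch and 0.69 and 0.59 under high stretch, with edgeR adjusted p-values of 0.117, 0.203, 0.352 and 0.321.

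Of 14 enzymes that cut or cross-link these proteins, 13 were tested. Under low stretch 3 rose, Loxl2 (0.91, edgeR adjusted p 0.023), Adamts1 (0.80, 0.0101) and Bmp1 (0.62, 0.0374), and 1 fell, Adamts15 (-3.22, 0.00569). Loxl2 cross-links collagen, Bmp1 cleaves procollagen and pro-lysyl oxidase, and the ADAMTS enzymes cleave versican and related proteoglycans. Under high stretch Loxl2 rose (1.07, 0.0276), from 60.9 ± 12.2 to 126.1 ± 15.5 CPM, while Adamts15 (-4.22, 0.0053) and Adamts4 (-1.31, 0.0229) fell; Adamts4 went from 131.3 ± 34.8 to 52.4 ± 0.552 CPM (SD, n = 3 each). With a sample left out, the low-stretch call of Bmp1 was kept in 4 of 9 fits, being lost without low-stretch replicate 1, 2 or 4 or unstretched replicate 2 or 3 (edgeR adjusted p up to 0.179). With the unstretched samples of both experiments pooled, Bmp1 was at 0.20 (edgeR adjusted p 0.503). The low-stretch call of Adamts1 was lost in one fit of all 15 samples (edgeR adjusted p 0.11), and that of Loxl2 was lost without unstretched replicate 2 or 3 (up to 0.104). Under high stretch the calls of Loxl2 and Adamts4 were kept only without unstretched replicate 2 or 3 (up to 0.161 and 0.153), and that of Adamts15 was lost without high-stretch replicate 3 (0.0551). The list's medians were 0.08 and 0.24, against 0.01 and -0.02 for all genes.

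**Figure D4:**
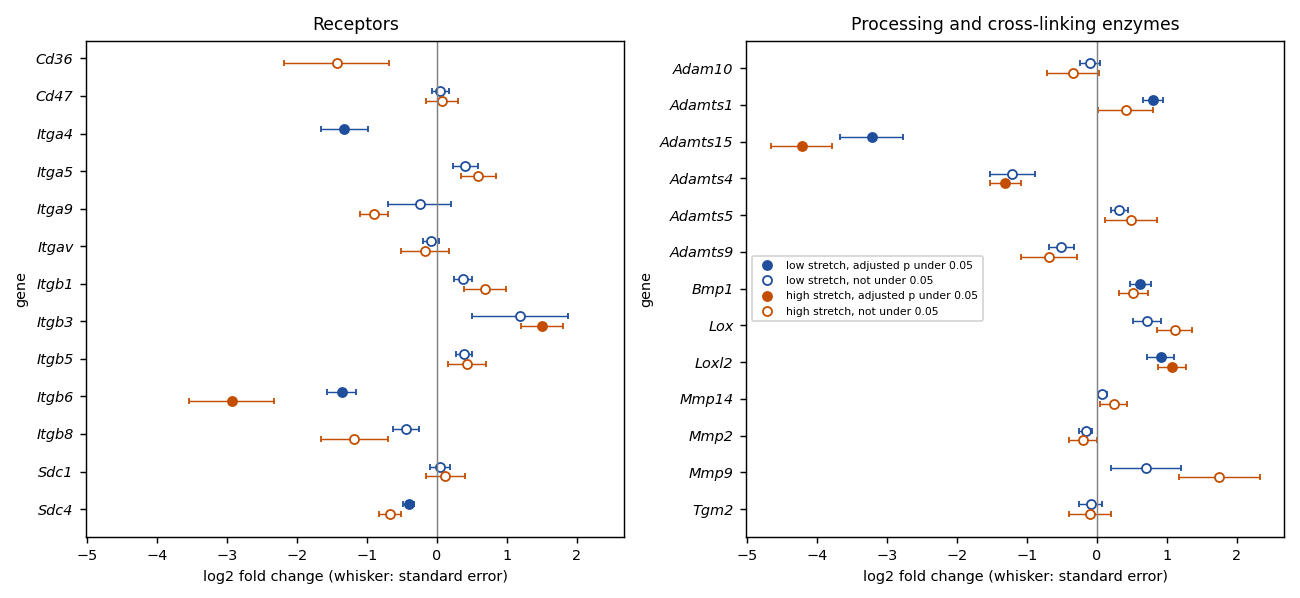
Log2 fold changes of the receptor genes (left) and of the enzymes that process or cross-link the proteins (right), under low stretch (blue) and high stretch (orange), with the standard error as whisker; filled points had an edgeR adjusted p under 0.05. Adamts15 lies farthest from 0, at -3.22 and -4.22.

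Of 11 genes for hyaluronan synthesis and for partners of CD44 or versican, 10 were tested. Under low stretch 2 fell: Ezr, which encodes ezrin and links CD44 to actin, from 655 ± 37.7 CPM (SD, n = 3) to 432 ± 54.8 CPM (SD, n = 6) with a log2 fold change of -0.60 (edgeR adjusted p 0.0127), and Hapln3 (-0.72, 0.0396). The Hapln3 call was kept only without low-stretch replicate 1 among 9 fits with a sample left out (edgeR adjusted p up to 0.158), and that of Ezr was lost without unstretched replicate 3 (0.0784). Under high stretch 0 passed in edgeR, 2 had an unadjusted p under 0.05 (14.6% of all genes did) and DESeq2 called 1 higher and 1 lower. Of 16 other matricellular genes, 10 were tested and 0 passed in edgeR in either comparison. An unadjusted p under 0.05 was found for 5 of these 10 under low stretch and 4 under high stretch, where 23.6 and 14.6% of all genes had one. DESeq2 called 1 and 2 of them higher, against 11.4 and 6.03% of all genes called in either direction. Tnn, encoding tenascin-N, had the largest values, 1.75 and 2.31, with edgeR adjusted p-values of 0.0513 and 0.112, at group means of at most 0.333 CPM. The 4 other genes of the osteopontin family were all under the filter. Of 11 splicing regulators known to act on exons of this kind, 10 were tested and 0 passed in edgeR or DESeq2 in either comparison, with 1 and 0 at an unadjusted p under 0.05.

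Markers of cell types were set beside these results. Wt1, which encodes a transcription factor that defines podocytes, fell under high stretch, from 2.81 ± 1.75 to 0.545 ± 0.0953 CPM (SD, n = 3 each, log2 fold change -2.36, edgeR adjusted p 0.0311). This call was kept only without unstretched replicate 2 or 3 among 6 fits with a sample left out (edgeR adjusted p up to 0.162). Under low stretch Wt1 went from 5.05 ± 0.993 CPM (SD, n = 3) to 2.28 ± 1.07 CPM (SD, n = 6) and did not pass (-1.16, edgeR adjusted p 0.0688). Of the podocyte markers tested, 0 of 8 passed under low stretch and Wt1 alone of 7 under high stretch. The 3 parietal epithelial markers other than Cd44 (Pax8, Pax2 and Cldn1) summed to 342 to 407 CPM without stretch and 308 to 578 CPM under low stretch. In experiment 2 they summed to 485 to 609 and 429 to 504 CPM. In edgeR 0 of the 3 passed in either comparison, with median log2 fold changes of -0.01 and -0.29. DESeq2 called 1 lower under low stretch and 0 under high stretch. Of the macrophage markers, Csf1r fell under both stretches (-1.51 and -2.02, edgeR adjusted p 0.00739 and 0.00808, the second lost without high-stretch replicate 3 at 0.0736), and the sum of the 4 macrophage markers was 23.5 to 26.2 CPM without stretch and 6.72 to 13.1 CPM under low stretch, and 23.8 to 26.1 and 5.9 to 9.87 CPM in experiment 2. The macrophage markers did not all fall: 3 were tested under low stretch and 2 under high stretch, with median log2 fold changes of -0.12 and -0.58. DESeq2 called 0 higher and 1 lower under low stretch, and 1 higher and 1 lower under high stretch (11.4 and 6.03% of all genes called). The defining macrophage genes Ptprc and Adgre1 were at means of at most 0.0373 and 0.00174 CPM in any group. The 5 mesangial or fibroblast markers summed to 1260 to 2000 CPM and 1510 to 3940 CPM in experiment 1, and to 2550 to 7230 CPM and 6530 to 10500 CPM in experiment 2, mostly from Acta2 (log2 fold changes 0.86 and 0.98, edgeR adjusted p 0.136 and 0.269). Of these 5, Pdgfrb was called under low stretch, and it fell (-0.56, edgeR adjusted p 0.0199; lost without unstretched replicate 1 or 3, at up to 0.12). Of the 4 tubular markers 2 were tested, and Lrp2 fell under low stretch (-0.65, edgeR adjusted p 0.0227; lost without each unstretched sample in turn or low-stretch replicate 4, at 0.0504 to 0.125). The 2 did not move together there: their median log2 fold change was 0.02. DESeq2 called 1 of them higher and 1 lower, where it called 11.4% of all genes. The 4 tubular markers summed to 926 to 1090 CPM and 474 to 757 CPM in experiment 1, and to 317 to 667 CPM and 249 to 425 CPM in experiment 2. The part of these cell types in the members' changes was not tested. A change in the make-up of a culture and a change in RNA per cell cannot be told apart in bulk samples.

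The genes whose levels were most like those of the called members over the 15 samples, after each experiment was centred, were found among 12938 genes and are given as a description. Among the genes closest to Fn1 were Fam171a1 (Pearson r 0.976) and Fyn (0.973). Cd44 was closest to Iars (0.992), Dpysl3 (0.991) and Lhfpl2 (0.987), and Spp1 to Pla2g4a (0.941), Pon3 (0.931) and Car13 (0.927). Postn was closest to Gbp7 (0.971), Rgs9 (0.961) and Adarb1 (0.961), and Thbs1 to Igsf9b (0.898), Zmat3 (0.877) and Tob1 (0.871). Among the members, Cd44 and Fn1 were the most alike (r = 0.92), and Fn1 and Postn the most opposed (r = -0.88). All of these points share libraries, depth and the division into stretched and unstretched samples.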

How the data were processed

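Poly(A) RNA of 15 samples was sequenced as stranded paired-end libraries, per the labels' protocols. The authors deposited raw gene counts and a table of TPM per transcript. STAR 2.7.5c, featureCounts, Subread 2.0.0, Salmon 1.9.0, DESeq2 1.38.3 and the mm39 build are named in the submitters' processing notes; the annotation and the strand setting are not given in the sources used here, so reads of overlapping antisense genes cannot be told apart. Symbols, transcript structure and exon sequences came from GENCODE M21 (GRCm38), which matched 52135 of 55416 genes and 137189 of 140789 transcripts, and promoters from RefSeq. Genes without a match held at most 0.181% of the counts in any sample.

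Groups came from the titles. Plate runs were inferred from the order of the plate position codes in the descriptions, each run starting at an unstretched sample. No label names a run or a batch. R 4.3.3 with edgeR 4.0.16 fitted the counts (filterByExpr, TMM, quasi-likelihood F test, Benjamini-Hochberg at 0.05), each stretched group with its own unstretched samples; the root of F served to turn a log2 fold change into its SE. Levels in CPM used TMM-scaled library sizes. Transcript usage was tested with limma 3.58.1 (eBayes with a trend) on log2((TPM + 0.1) / (other TPM of the gene + 0.1)), which understates changes of low transcripts, for genes of at least 1 TPM and mean fractions from 0.05 to 0.95. An exon's share is the TPM of transcripts holding it over that of transcripts that span its place and either hold it or skip it. Spanning transcripts with a different exon that overlaps its place were left out. These shares were derived after the data were seen and tested by two-sided exact permutation. TPM keeps no depth, so no interval was given for shares.

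The text names all 9 members whatever their values, their transcripts of at least 5% of the gene, and list genes called without overlap; others named were chosen after their values were seen. The members and lists were chosen with earlier results of these data known. Alternatives were DESeq2 1.42.0, RLE size factors, other filters, one fit of all samples, pooled unstretched samples, blocks and each sample left out. The tests were tested on simulated data with a smaller and a larger planted change, the larger added after the gene test missed the smaller one in the high-stretch design; a gene that did not pass there is therefore not shown to be unchanged. Some items are not reported here.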

Additional observations from a re-analysis of the deposited data

Results flagged for a closer look

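Postn in the low-stretch cells had 1 sample far from the other 5: low-stretch replicate 5 was at 26.7 CPM, against 8.99 to 14.0 CPM in the others. It came from the same plate run as the unstretched sample with the highest Postn level. This check needs more than 3 values, so only the low-stretch group (n = 6) was examined. Of its 29 sets of levels and shares, which are not independent, 1 stood out, and chance flags about 1 in 20. Without that sample the log2 fold change of Postn under low stretch was -1.87, with an edgeR adjusted p of 0.0131.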

How the results depend on the processing

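The number of members called moved with the setting. Under low stretch 4 were called, where 5.45% of all genes were. DESeq2 and the plate run block each gave 7 (with 11.4 and 28.2% of all genes). With that block the edgeR adjusted p was 0.000227 for Fn1, 0.000112 for Spp1 and 0.000584 for Postn. One fit of all 15 samples gave 2 (2.91% of all genes). Leaving out a sample gave 0 to 4 (0.998 to 7.57% of all genes), with 0 without unstretched replicate 1 or replicate 3. Under high stretch 3 were called, where 3.47% of all genes were. Pooling the unstretched samples of both experiments gave 1 (2.85% of all genes). Leaving out a sample gave 0 to 4 (0.0755 to 7.77%), with 0 without high-stretch replicate 1 or 3 or unstretched replicate 1. Between the unstretched groups 4 were called (62.5% of all genes), and 2 to 6 with a sample left out (44.1 to 73.0% of all genes). The difference between the stretch effects had 0 in every fit run. Among usage tests, 1 transcript (Postn-206) passed under low stretch with a pseudocount of 1 TPM, a gene mean of at least 5 TPM, no filter or the plate run block, and 1 (Fn1-203, change -0.61, limma adjusted p 0.0378) passed under high stretch with all 15 samples in one fit. Over all genes, edgeR called 1181 under low stretch, against 2694 with DESeq2, 640 with all 15 samples in one fit, 490 with the replicate block, 6106 with the plate run block and 220 to 1630 with a sample left out. Under high stretch it called 643, against 1321 with DESeq2, 1050 with no filter, 414 at a mean count of at least 100, 1488 with all 15 samples, 1546 with the replicate block and 14 to 1421 with a sample left out. The cause was not tested for any of these. In the exon tests, leaving out an unstretched sample of experiment 1 leaves too few samples for an exact p under 0.05.

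The main fits did not pair samples by replicate number. Same-numbered samples had correlations of 0.294, -0.336 and -0.232 in experiment 1 and -0.163, 0.45 and 0.241 in experiment 2. In experiment 2 the number is also the plate run. In experiment 1 only the samples numbered 1 share a plate run, so the values of -0.336 and -0.232 compare samples of different runs. With the replicate block (low-stretch replicates 4 to 6 then drop out) 4 members were called under low stretch (2.3% of genes). Cd44 was gained (edgeR adjusted p 0.0443) and Thbs1 lost (0.133). Under high stretch 3 were called (8.35% of genes). These were Fn1, Cd44 and Postn, with edgeR adjusted p-values of 2.77e-05, 7.96e-06 and 7.62e-07. Among called partner genes under low stretch, edgeR lost Itgb6, Itga4, Sdc4, Loxl2, Adamts1, Adamts15 and Hapln3 with this block. The replicate block turned the usage differences between the stretch effects to 0.003 for Cd44-207, 0.09 for Fn1-201, -0.005 for Fn1-214 and -0.184 for Tnc-201, and the low-stretch usage changes to 0.032 for Fn1-214 and 0.113 for Tnc-201.

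Pooling the unstretched samples turned the high-stretch log2 fold changes of Adamts1 to -0.121, Sparc to 0.07, Spp1 to -0.122 and Vcan to -1.175. On the linear scale the usage difference was 0.235 for Fn1-201 and -5.487 for Postn-202, which was -2.083 with a pseudocount of 0.01 TPM; a pseudocount of 1 TPM gave Postn-202 a high-stretch change of 0.35. With a sample left out, these values crossed 0. Log2 fold changes ran from -0.388 to 0.068 for Thbs1 under high stretch and from -0.043 to 0.324 for Vcan under low stretch. Differences between the effects ran from -1.17 to 0.036 for Postn, -1.062 to 0.269 for Spp1 and -0.066 to 0.269 for Tnc. Usage differences ran from -0.035 to 0.173 for Cd44-203, -0.147 to 0.055 for Cd44-207, -0.074 to 0.044 for Fn1-201, -0.011 to 0.167 for Fn1-214, -0.112 to 0.495 for Postn-201, -0.199 to 0.24 for Postn-202 and -0.167 to 0.569 for Tnc-201. Usage changes ran from -0.14 to 0.026 for Fn1-214 and -0.64 to 0.096 for Tnc-201 under low stretch, and from -0.072 to 0.106 for Fn1-214, -0.024 to 0.583 for Postn-201, -0.272 to 0.108 for Tnc-201 and -0.012 to 0.258 for Tnc-204 under high stretch. Exon shares under high stretch ran from -3.21 to 0.0308 points for Cd44 and -4.18 to 0.748 points for the Postn exon of 78 bases.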
